A study of Bos taurus with 16 samples.

Results

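A set of 10 named genes of the bovine embryo was all but silent from the mature oocyte to the compact morula and was abundant in both blastocysts. These were HPCA, VGLL1, FADS3, KRT19, SLC9A3, PAG2, PLLP, IFI30, P2RX4 and DPEP1. The genes were selected on their measured values in all 16 samples: both blastocyst values at 50 or more and all 14 other values at 10 or less. The values are normalised read counts, that is, reads on a gene divided by 1 scaling factor for each sample. The rule found 10 of the 24820 loci that carry a gene name, out of 27393 loci in all. Because the blastocyst values chose these genes, their rise into the blastocyst is described without a test.

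The samples were single in vivo matured oocytes (MII) and single embryos that had developed in vivo. The embryos were at the 2-cell (2C), 4-cell (4C), 8-cell (8C), 16-cell (16C), early morula (EM), compact morula (CM) and blastocyst (BL) stages. There were 2 samples for each of the 8 stages, 16 in all, and no treatment was given to any group. RNA of each oocyte or embryo was amplified in 2 rounds before sequencing, and reads on loci summed to between 607672 in 16C embryo 2 and 3379426 in 2C embryo 2, with 1018125 in BL embryo 1 and 681307 in BL embryo 2. The sources do not say which cow or flush each embryo came from, so the p-values below measure only the spread between these samples. Fewer cells of a type and less RNA per cell cannot be told apart in whole embryos.

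At the blastocyst stage the bovine embryo has formed its first epithelium, the trophectoderm, around a fluid-filled cavity and an inner cell mass. The trophectoderm is held together by junctions and keratin filaments, moves ions and water into the cavity, and later secretes the placental products by which the ruminant embryo is recognised by its mother. Embryonic genome activation (EGA), when the embryo begins to transcribe its own genome in earnest, takes place in cattle embryos grown in vivo between the 4C and 8C stages.

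The blastocyst label was checked against markers of the lineages. Several trophectoderm genes were present in BL embryos 1 and 2, with GATA3 at 182 and 149, KRT8 at 543 and 543, and KRT18 at 401 and 396. The pluripotency genes NANOG (55.8 and 79.2) and POU5F1 (3698 and 3736) and the hypoblast gene GATA6 (171 and 179) were also present. CDX2, a defining trophectoderm factor in other mammals, was at 0 in both blastocysts, and SOX2, an inner cell mass gene, was at 1.01 and 1.58. Cumulus, oviduct and blood markers, which would show cells carried along with the embryo, summed in the blastocysts to values within the range of the other 14 samples. The sums in BL embryos 1 and 2 were 639 and 746 for 16 cumulus and granulosa genes (438.7 to 2636 elsewhere), 84.2 and 57.0 for 13 oviduct and endometrium genes (37.2 to 333.9 elsewhere), and 32.5 and 53.9 for 20 blood and stroma genes (10.2 to 103.5 elsewhere). STAR, of the cumulus and granulosa list, was at 583 or more in both blastocysts (up to 2282 elsewhere) and made up most of that sum. The sum therefore says little about the other genes of the list. The cumulus gene FSHR and the oviduct gene OVGP1 were at 0 in both blastocysts. HSD3B1, a steroid enzyme of the cumulus and granulosa list, was at 35.5 and 58.6, against 0 in both compact morulae (log2 change 5.54, SE 0.86, limma adjusted p = 0.00138). That call was lost with edgeR (adjusted p = 0.0607). The part of such cells in the values of the 10 genes was not tested.

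**Figure D1:**
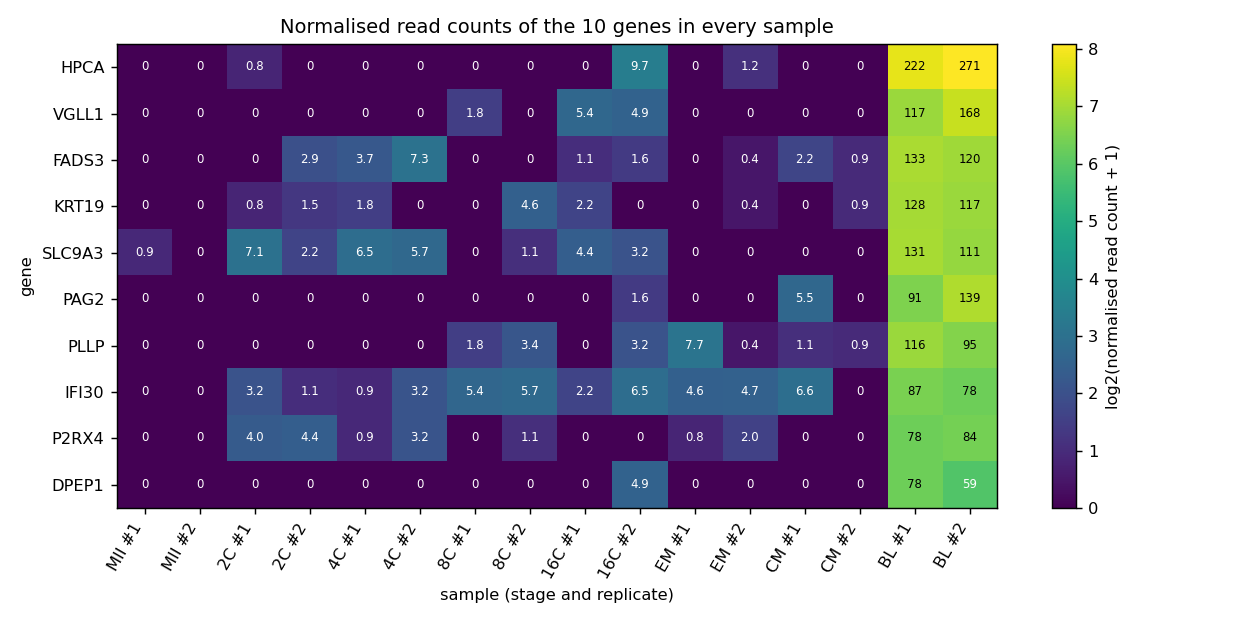
Normalised read counts of the 10 genes (rows) in each of the 16 samples (columns), coloured by log2(normalised read count + 1), with the value printed in each cell. The last 2 columns, the blastocysts, hold values from 58.6 to 271, and the highest value in any other column is 9.70 (HPCA in 16C embryo 2).

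The genes of the epithelium come first. KRT19, a type I keratin of simple epithelia that pairs with KRT8, was at 128 in BL embryo 1 and 117 in BL embryo 2 (mean 123 ± 7.48, SD, n = 2). Elsewhere it was at 0 in 7 of 14 samples, and its highest value was 4.59 in 8C embryo 2, which rests on 4 reads. The compact morulae held 0 and 0.938. Within these low values no stage from oocyte to morula stood out for KRT19. The low values before the blastocyst and the gap to both blastocysts were required by the rule, so they are a description only.

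SLC9A3 (also called NHE3), a sodium-proton exchanger of apical membranes, was at 131 and 111 in the blastocysts (mean 121 ± 14.1, SD, n = 2). It differed from KRT19 in its earlier course. The 2C embryos held 7.12 and 2.19 and the 4C embryos 6.46 and 5.69. The 16C embryos held 4.35 and 3.23, whereas both early morulae and both compact morulae were at 0. Reads for SLC9A3 were therefore present before EGA and were absent in the 4 morulae. That its highest values lay in the blastocysts was required by the rule.

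PLLP (plasmolipin), a small membrane protein of myelin and of vesicles in epithelial cells, was at 116 and 95.1 in the blastocysts (mean 105 ± 14.6, SD, n = 2). All 6 samples from MII to 4C were at 0, and 7 of the 8 samples from 8C to CM held reads. The 8C embryos had 1.80 and 3.44, EM embryo 1 had 7.73 from 10 reads and EM embryo 2 had 0.391. The compact morulae were at 1.11 and 0.938, so the low level after EGA did not climb steadily toward the blastocyst.

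P2RX4, a cation channel opened by extracellular ATP, was at 78.1 and 84.0 in the blastocysts (mean 81.0 ± 4.14, SD, n = 2). The 2C embryos held 3.96 and 4.38, the latter from 12 reads. The 4C embryos held 0.922 and 3.25, and both oocytes, both 16C embryos and both compact morulae were at 0. Its low reads, like those of SLC9A3, lay mainly at 2C and 4C.

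Of the trophoblast genes, VGLL1 encodes a cofactor that binds the TEAD transcription factors. It was at 117 and 168 in BL embryos 1 and 2 (mean 142 ± 36.3, SD, n = 2). It was at 0 in 11 of 14 other samples, and the reads that existed lay in 8C embryo 1 (1.80) and in both 16C embryos (5.44 and 4.85). All 4 morulae were at 0, so VGLL1 was seen at 16C, not in the morulae and again in the blastocysts.

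PAG2, a pregnancy-associated glycoprotein of the ruminant trophoblast that belongs to the aspartic proteinase family, was at 91.3 and 139 in the blastocysts (mean 115 ± 34.0, SD, n = 2). Only 2 of the other 14 samples held reads, 16C embryo 2 at 1.62 and CM embryo 1 at 5.54 from 5 reads. PAG genes form a large family of related genes, and how reads that match more than 1 of them were counted is not given in the sources used here. The PAG2 value is uncertain for that reason.

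The enzymes were FADS3, IFI30 and DPEP1. FADS3, a fatty acid desaturase family member that acts on sphingoid bases, was at 133 and 120.4 in the blastocysts (mean 127 ± 8.83, SD, n = 2). The 4C embryos held 3.69 and 7.31, and the compact morulae 2.22 and 0.938. Reads were found in 8 of the 14 earlier samples, and none were found in either oocyte or either 8C embryo.

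IFI30, a thiol reductase of lysosomes that is induced by interferon-gamma in immune cells, was at 87.2 and 77.6 in the blastocysts (mean 82.4 ± 6.80, SD, n = 2). Reads for IFI30 were present in 11 of the 14 earlier samples, the most of the 10 genes, and numbered 50 in all. Both oocytes and CM embryo 2 were at 0. The 8C embryos held 5.40 and 5.73, the early morulae 4.64 and 4.69, and CM embryo 1 held 6.65. IFI30 was the gene for which "first seen in the blastocyst" describes the data least well.

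DPEP1, a membrane dipeptidase that cleaves small peptides including the glutathione breakdown product cysteinylglycine, was at 78.1 and 58.6 in the blastocysts (mean 68.4 ± 13.8, SD, n = 2). It was at 0 in 13 of 14 other samples. The single exception was 16C embryo 2, at 4.85 from 3 reads.

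HPCA (hippocalcin), a calcium sensor best known from neurons, was at 222 and 271 in the blastocysts (mean 246.6 ± 34.5, SD, n = 2). It was at 0 in 11 of 14 other samples, with 0.791 in 2C embryo 1, 1.17 in EM embryo 2 and 9.70 in 16C embryo 2 from 6 reads. In the RefSeq annotation (assembly ARS-UCD2.0) HPCA overlaps TMEM54, and it is not stated whether reads were counted by strand, so reads of HPCA and TMEM54 could not be told apart by position alone. TMEM54 itself was at 10.1 and 31.7 in the blastocysts.

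Across the 10 genes, 83 of the 140 values outside the blastocyst were 0, 26 rested on 1 or 2 reads and 31 on 3 reads or more. Over all named loci, the share with reads in these samples ran from 33.0% (MII oocyte 2) to 44.6% (2C embryo 2). Values of 0 were thus about as common over all named loci as in the 10 genes. None of the 10 genes was at 0 in all 14 earlier samples. Both compact morulae were at 0 for 5 of the genes, and for these the step from CM is a lower bound, taken against the mean of the CM embryos' values for 3 reads each. The blastocyst mean was at least 80.3-fold higher for HPCA, at least 46.4-fold for VGLL1, at least 39.4-fold for SLC9A3, at least 26.4-fold for P2RX4 and at least 22.3-fold for DPEP1. For all 10 genes the smaller blastocyst value was between 11.7 (IFI30) and 25.6 (KRT19) times the highest value of any other sample.

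Reads on the 10 genes together made up 0.114% of reads in BL embryo 1 (1164 reads) and 0.115% in BL embryo 2 (784 reads). The highest share elsewhere was 0.00362%, in 16C embryo 2 (22 reads). That embryo also held reads for 8 of the 10 genes, against 3 to 6 in the other embryos before the blastocyst and 1 and 0 in the oocytes. Of all named loci, 38.1% had reads in 16C embryo 2. In the other embryos before the blastocyst that share ran from 35.9% (8C embryo 1) to 44.6% (2C embryo 2). The same library, the shallowest of the 16, held other genes that were high in the blastocysts, with KRT8 at 100.3, KRT18 at 112, PTGS2 at 66.3 and GRHL1 at 34.0, while the other 16C embryo held 5.44, 16.3, 0 and 7.62. The part of that library in the low reads of the 10 genes was not tested.

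**Figure D2:**
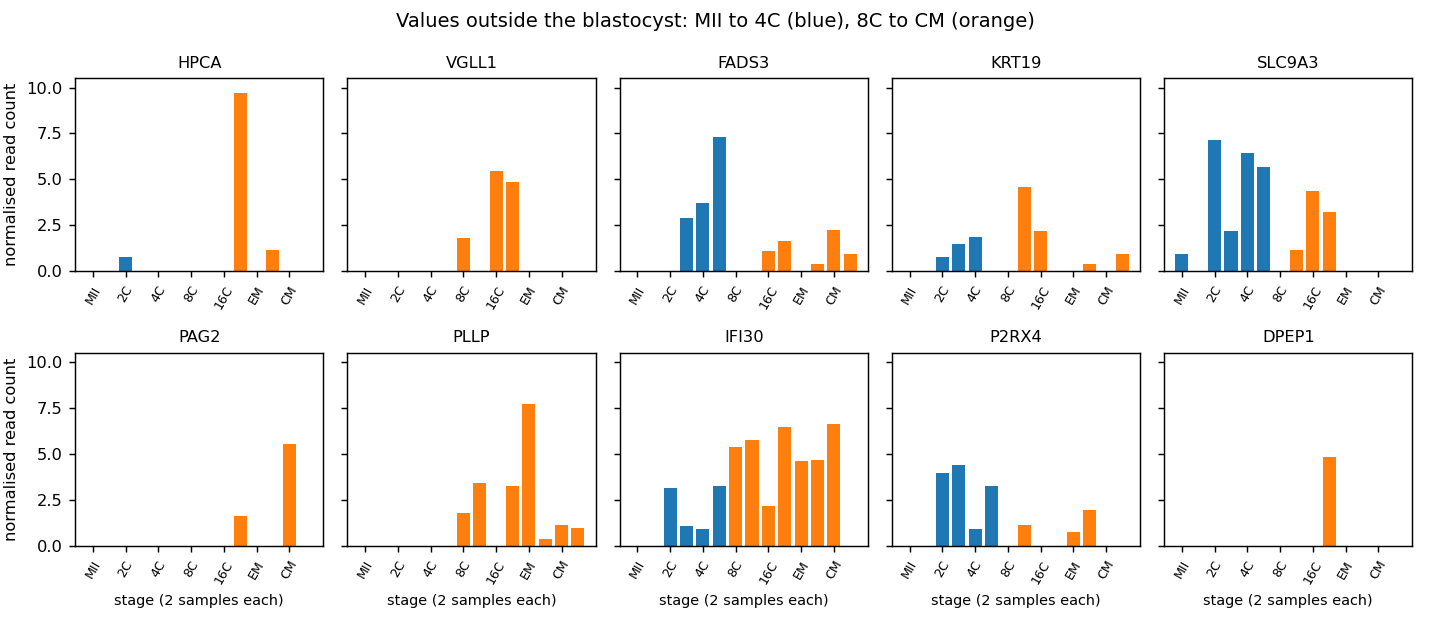
Normalised read count (vertical axis, linear) of each of the 10 genes in the 14 samples before the blastocyst, with 2 bars for each stage in replicate order. Blue bars are MII to 4C and orange bars 8C to CM; SLC9A3, P2RX4 and FADS3 have their tallest bars at 2C or 4C, PLLP and VGLL1 have orange bars only, and HPCA reaches 9.70 in 16C embryo 2.

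The 14 samples before the blastocyst were next described across EGA. The rule had capped every one of these values at 10, on both sides of EGA alike, so the 10 genes are given here by their values and without a test. Over all 12784 loci whose 14 values summed to 10 or more, limma on log2(normalised read count + 1) called 7703 (60.3%) different between 8C to CM and MII to 4C, 29.8% higher and 30.5% lower after EGA.

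PLLP and VGLL1 had no read in any of the 6 samples from MII to 4C. PLLP then had a mean of 2.33 ± 2.51 (SD, n = 8) from 8C to CM, with reads in 7 of 8 samples, and VGLL1 a mean of 1.51 ± 2.33 (SD, n = 8), with reads in 3 of 8. PAG2 and DPEP1 also had no read before EGA, but only 6 and 3 reads in all after it. IFI30 had reads on both sides, with means of 1.41 ± 1.47 (SD, n = 6) before and 4.47 ± 2.28 (SD, n = 8) after.

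SLC9A3 had more reads before EGA than after it. Its mean was 3.73 ± 3.06 (SD, n = 6) in MII to 4C, with reads in 5 of 6 samples, and 1.09 ± 1.74 (SD, n = 8) in 8C to CM, with reads in 3 of 8. P2RX4 had means of 2.08 ± 2.01 (SD, n = 6) before and 0.484 ± 0.742 (SD, n = 8) after, and FADS3 of 2.32 ± 2.94 (SD, n = 6) before and 0.781 ± 0.833 (SD, n = 8) after. KRT19 had means of 0.683 ± 0.820 (SD, n = 6) and 1.01 ± 1.63 (SD, n = 8), and HPCA of 0.132 ± 0.323 (SD, n = 6) and 1.36 ± 3.40 (SD, n = 8). The values before and after EGA overlapped for each of the 10 genes.

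The compact morulae, the last stage before the blastocyst, were capped at 10 by the rule as well, so the genes were chosen for having no sizeable rise there and no test of one is given. HPCA, VGLL1, SLC9A3, P2RX4 and DPEP1 were at 0 in both compact morulae. The highest CM values were 6.65 for IFI30 and 5.54 for PAG2, both in CM embryo 1, and both genes were at 0 in CM embryo 2. Over all 12784 loci limma called 1896 (14.8%) different between CM and the mean of MII to EM, 7.79% higher and 7.04% lower. That count fell to 249 without CM embryo 1, to 185 without CM embryo 2 and to 1 when CM was set against EM alone.

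The rule required both blastocysts at 50 or more, which removes genes that were high in 1 of them only, so the ratios between the 2 blastocysts are a description. In BL embryo 1, 6 genes were higher, and in BL embryo 2, 4 genes, and the ratio of BL embryo 2 to BL embryo 1 ran from 0.75 for DPEP1 to 1.53 for PAG2. No gene differed by more than 2-fold. The blastocyst values rest on between 37 reads (DPEP1, BL embryo 2) and 219 reads (HPCA, BL embryo 1). The 95% counting interval of the ratio excluded 1 for VGLL1 (1.44, 1.10 to 1.89) and PAG2 (1.53, 1.13 to 2.07), both higher in BL embryo 2. It included 1 for the other 8 genes, for example FADS3 (0.906, 0.674 to 1.21) and KRT19 (0.917, 0.679 to 1.23). These intervals cover counting error only. Over the 1713 named loci with both blastocysts at 50 or more, the median ratio was 0.979 and 92.2% lay within 2-fold, a set bounded in the same way.

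**Figure D3:**
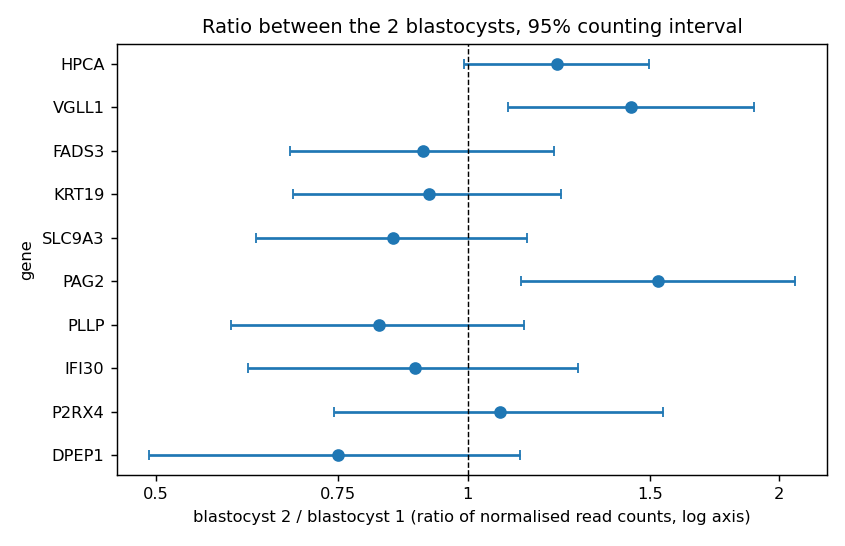
Ratio of the normalised read count in BL embryo 2 to that in BL embryo 1 (log axis) for each of the 10 genes, with bars for the 95% counting interval and a dashed line at 1. VGLL1 and PAG2 lie wholly to the right of the line, and the other 8 bars cross it.

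Just inside the rule were DPEP1, with a smaller blastocyst value of 58.6, and HPCA, with an earlier value of 9.70. Just outside it on the blastocyst side were LOC100850473 (49.7 and 71.3), FXYD4 (79.1 and 49.1), LOC783399 (46.7 and 87.1), TFAP2A (50.7 and 44.4) and MICALL2 (42.6 and 61.8). Of these, LOC783399 was at 0 in all 14 earlier samples. On the other side, MIR365-2, FAM83H, PTPRF, ABHD12 and HTRA2 had both blastocysts at 50 or more, but a highest earlier value between 10.9 (MIR365-2) and 14.4 (HTRA2). The edges of the set are thus populated. Of all named loci, 15245 had all 14 earlier values at 10 or less, and 3435 of these had a read in either blastocyst.

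**Figure D4:**
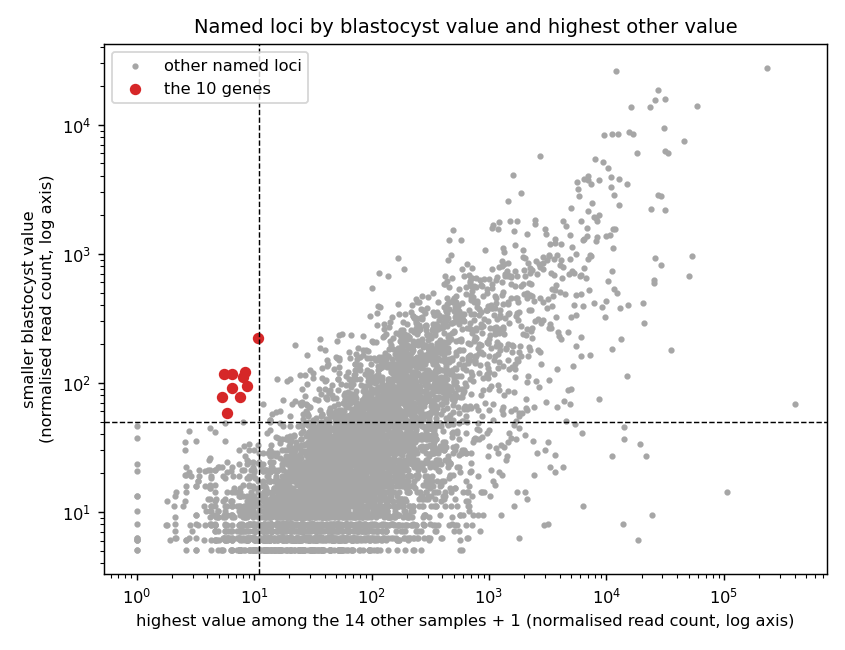
Smaller of the 2 blastocyst values against the highest value among the 14 other samples plus 1, both normalised read counts on log axes, for named loci; the dashed lines are the thresholds of 50 and 10. The 10 genes (red) fill the upper left corner, with the nearest grey loci just below or to the right of the lines.

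Relatives of the 10 genes were described from lists and families that were chosen with results known, and were compared between BL and CM with limma over 9670 loci, on the same scale, which understates the change of low genes. Of these loci 427 (4.42%) differed, 282 higher (2.92%) and 145 lower (1.5%), and the median log2 change over all loci was 0.11. No value of the 10 genes is taken from this comparison. With 2 embryos for each stage, many of the calls named in the next paragraphs depended on single samples. Where a range of adjusted p is given, it is over 23 or 24 alternatives. KRT8, KRT18, PTGS2, GATA2, GATA3 and GRHL1 lost the call without CM embryo 2, without BL embryo 1 and without BL embryo 2, KRT8 also with edgeR, and KRT18, GATA2 and GRHL1 also under further alternatives (17, 11 and 10 of 24 in all). KRT5, CAMKK2 and MPV17L2 lost it without CM embryo 2 and without BL embryo 2, and MPV17L2 also with edgeR. TFAP2A, TDGF1, APOA1 and HSD3B1 lost it only with edgeR (adjusted p = 0.0565, 0.0965, 0.13 and 0.0607), and FXYD4 only with edgeR and with DESeq2.

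Of 58 other loci named as keratins 6 could be tested, 2 were higher and 2 lower in BL, with a median log2 change of 0.20. In the shorter list of 13 keratins the median of the 5 tested was 0.84. KRT8, the type II partner of KRT19, was at 31.0 and 0 in CM and at 543 in both blastocysts (log2 change 6.59, SE 1.42, limma adjusted p = 0.0136, range 0.00207 to 0.218). KRT18, the other main type I keratin of the trophectoderm, was at 55.4 and 0 in CM and 401 and 396 in BL (5.73, SE 1.52, limma adjusted p = 0.0432, range 0.00638 to 0.483). KRT8 and KRT18 had both held over 100 in 16C embryo 2, where KRT19 was at 0. The rule capped KRT19 in that sample, so a value as high was excluded by the selection. The contrast is not a finding about the keratins. KRT5 moved the other way, from 4520 and 3833 to 107 and 74.5 (log2 change -5.53, SE 1.03, limma adjusted p = 0.00521, range up to 0.0964), and a second KRT5 locus was also lower (-5.54, SE 0.92, limma adjusted p = 0.00232). KRT10 had a log2 change of 0.84 (SE 1.05, limma adjusted p = 0.747).

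Of 29 other trophectoderm regulators 17 were tested, 6 were higher and 1 lower in BL, with a median log2 change of 1.75. The 6 were GATA2, GATA3, TFAP2A, ETS2, GRHL1 and ARID3A, and the 1 lower was TP63. The calls of ETS2, ARID3A and TP63 were not followed through the alternatives. TFAP2A, a transcription factor of the trophectoderm, had a course close to that of the 10 genes, at 0 in both compact morulae and at 50.7 and 44.4 in BL (5.60, SE 0.71, limma adjusted p = 4.91e-04, range up to 0.0565). Its highest earlier value was 3.19, so the filter kept it only through its blastocyst values. The p-value of TFAP2A therefore cannot be read as a test of its rise. GATA3 rose from 12.2 and 1.88 to 182 and 149 (4.75, SE 1.00, limma adjusted p = 0.0119, range up to 0.171). GATA2 (limma adjusted p = 0.035, range up to 0.404) and GRHL1 (0.0291, range up to 0.59) passed less firmly. TFAP2C, already at 135 and 141 in CM, had a log2 change of 0.35 (limma adjusted p = 0.817).

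No TEAD factor, the partners of VGLL1, passed the test between CM and BL. TEAD1 had a log2 change of 1.65 (limma adjusted p = 0.523), TEAD2 of 2.82 (0.192) and TEAD3 of 1.51 (0.35). TEAD4 was at 43.2 and 19.7 in CM and 3.04 and 11.1 in BL (-2.11, SE 0.81, limma adjusted p = 0.17). VGLL2 and VGLL3 were at 0 in all 16 samples, and the more abundant VGLL4 locus had a log2 change of -0.71 (0.812). The rule chose VGLL1 by its values, so its difference from these relatives is a description only.

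Of 21 other pregnancy-associated glycoprotein loci, 16 were at 0 in every sample and none was high enough to test. PAG12, next to PAG2 in the RefSeq annotation, was at 77.1 in BL embryo 1 and at 0 in BL embryo 2. Of 33 other trophoblast products 9 were tested and 1 was higher, PTGS2, a prostaglandin synthase, which went from 3.32 and 0 to 286 and 233 (6.96, SE 1.39, limma adjusted p = 0.008, range 7.29e-04 to 0.131). Their median log2 change was 0. The interferon tau locus IFNT was at 0 in both blastocysts and IFNT2 at 0 and 4.75, against 38.1 and 30.7 for IFNT and 23.9 and 69.5 for IFNT2 in the 16C embryos. SSLP1, PTGES3 and AKR1B1 had log2 changes of -0.51, 0.35 and 1.78 (limma adjusted p = 0.847, 0.782 and 0.158).

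**Figure D5:**
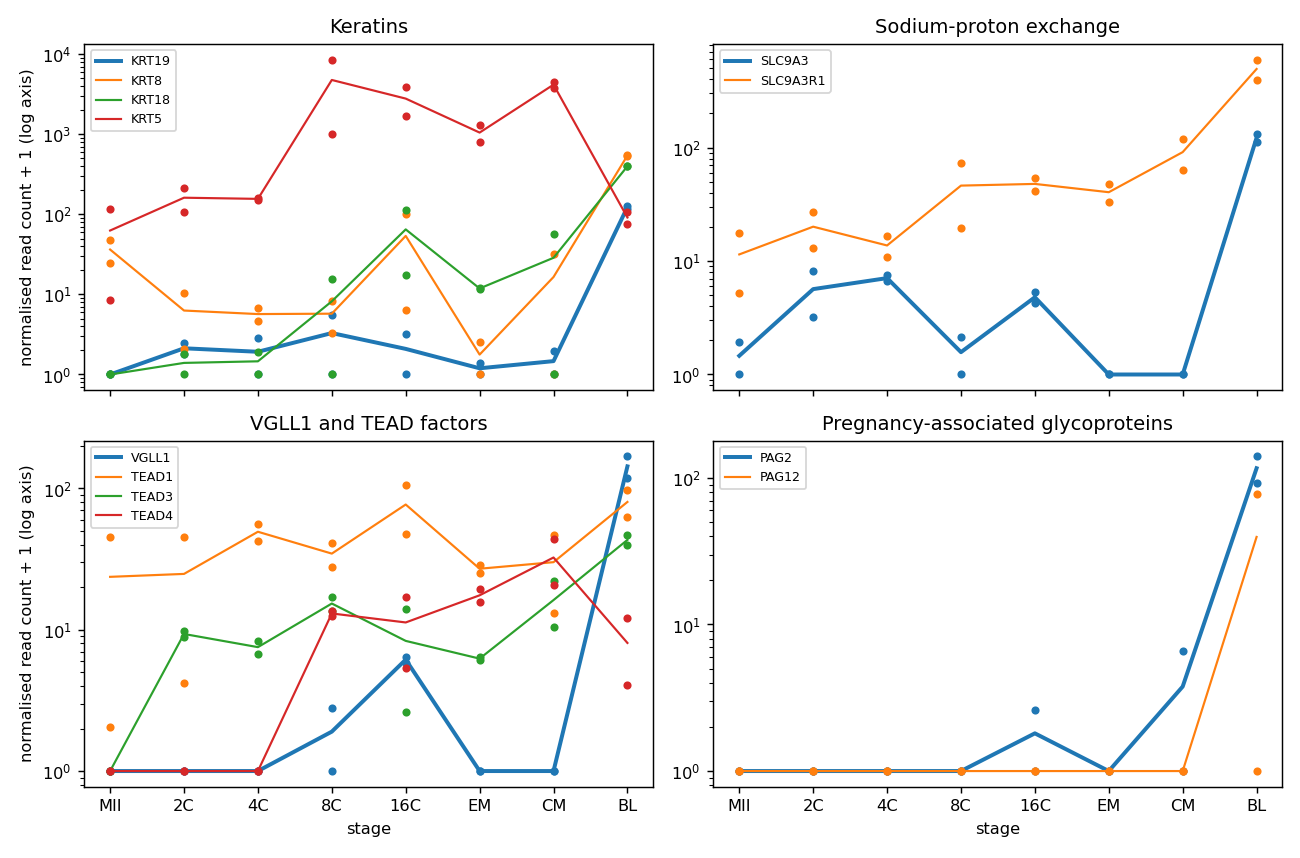
Normalised read count plus 1 (log axis) by stage for KRT19, SLC9A3, VGLL1 and PAG2 (thick blue lines) and relatives of each (thin lines); points are the 2 samples of a stage and lines join their means. KRT8 and KRT18 end near 543 and 400 in BL, KRT5 falls from 4520 and 3833 in CM to 107 and 74.5, and PAG12 has a value above 0 in BL embryo 1 only.

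Of 27 other ion pumps and water channels 9 were tested and 1 was higher in BL, with a median log2 change of 0.71. This was FXYD4, a regulator of the sodium pump, at 3.32 and 4.69 in CM and 79.1 and 49.1 in BL (3.68, SE 0.64, limma adjusted p = 0.00332, range up to 0.212). FXYD4 was at 4.69 or less in every earlier sample, so the filter kept it only through its blastocyst values. Its p-value cannot be read as a test of its rise. ATP1B3, a sodium pump subunit, had a log2 change of 0.71 (limma adjusted p = 0.658) and the water channel AQP11 of 0.09, which did not pass either. SLC9A3R1, a scaffold that holds SLC9A3 at the membrane, was at 117 and 62.9 in CM and 593 and 390 in BL (2.47, SE 0.74, limma adjusted p = 0.0746). It passed in 5 of 24 alternatives.

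No relative of FADS3, P2RX4, HPCA, DPEP1 or PLLP met the rule. FADS1 was at 25.5 and 22.5 in CM and 26.4 and 31.7 in BL (0.26, limma adjusted p = 0.974), and FADS2, next to FADS3, was at 6.09 and 17.4 in BL. The highest value of any other P2X receptor in a blastocyst was 7.92 (P2RX2, BL embryo 2), and P2RX7, beside P2RX4, was at 0 throughout. HPCAL1, a relative of HPCA, was at 5.54 and 2.81 in CM and 21.3 and 23.8 in BL (2.23, limma adjusted p = 0.236). DPEP2 and DPEP3 were at 0 in both blastocysts. Of 10 other MARVEL proteins, the family of PLLP, 6 were tested and none passed limma, with a median log2 change of 0.26.

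Counts for the other lists are given as background to the set, none of which holds 1 of the 10 genes. Among the calls in this paragraph, only those of TDGF1, APOA1 and HSD3B1 were followed through the alternatives. Of 30 junction genes tested, DSC2 and TJP3 were higher in BL and CLDN10 lower (median log2 change 1.08). Of 19 proteases and inhibitors tested, CTSD, SPINT1, PRSS8, SERPINB6 and TMPRSS4 were higher (median 2.27). Of 23 nutrient carriers SLC1A5 was lower (median 0.76), and of 13 annexins and S100 proteins ANXA3 was higher and S100A2 lower (median 2.63). Of 12 inner cell mass and epiblast genes TDGF1 and H2AFY2 were higher and KLF17 lower (median -0.17), of 13 hypoblast genes HNF4A and APOA1 were higher (median 0), and of 6 cumulus and granulosa genes HSD3B1 was higher (median 0.75).

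The 10 genes did not lie beside each other. Of 60 named or unnamed loci within 3 places of them in the numbering of the deposited loci, 9 had a blastocyst mean of 50 or more and none met the rule. The share of all loci at such a mean was not computed. By the stricter count of both blastocysts at 50 or more, it was 1713 of the 24820 named loci. Of 21 loci of coding neighbours in the RefSeq annotation, 7 could be tested and 4 were higher in BL, beside 2.92% over all loci. MPV17L2 and TMEM54 were among the 4, and the filter kept them only through their blastocyst values. The 4 of 7 is therefore partly set by the filter. ARL2BP lies beside PLLP and was at 73.1 and 83.5 in CM and 1006 and 715 in BL (3.42, SE 0.61, limma adjusted p = 0.00395, at most 0.0466 over 24 alternatives). MPV17L2, beside IFI30, was at 2.22 and 0 in CM and 25.4 and 19.0 in BL (3.68, limma adjusted p = 0.00758, range up to 0.167). Its highest value before the blastocyst was 6.46, so this p-value cannot be read as a test of its rise. CAMKK2, beside P2RX4, was at 65.9 and 163 in BL (3.99, limma adjusted p = 0.00709, range up to 0.144) after reaching 627 in MII oocyte 1. TMEM54, which overlaps HPCA, was at 0 in both compact morulae (4.25, SE 0.85, limma adjusted p = 0.00827), a call lost without CM embryo 1, CM embryo 2 or BL embryo 2 and with edgeR (range up to 0.18). With a highest earlier value of 3.91 (EM embryo 2), TMEM54 has the same limit as MPV17L2. EXOC3, beside SLC9A3, had a log2 change of 0.40 (limma adjusted p = 0.896).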

How the data were processed

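RNA of single oocytes and embryos was amplified in 2 rounds and sequenced on the SOLiD platform by the authors, whose notes name cutadapt, FastQC, TopHat, Cufflinks and HTSeq, and whose versions and genome build are not given in the sources used here. The deposited signal values are read counts per locus divided by 1 factor per sample. Dividing each column by its smallest value above 0 gave whole numbers (100% of values in each sample), so reads were recovered, 1 read being worth 0.365 to 1.80.

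Members followed the rule given at the opening. The members, gene lists, families and neighbours were chosen with earlier results of these data known. All members were named, and from each list up to 4 others with the highest blastocyst mean; further genes were named after their values were seen. Some listed genes are not reported here. Fits used limma 3.58.1 with trend on log2(value + 1), Benjamini-Hochberg adjusted over all loci, with stages sharing 1 spread, in R 4.3.3. The fits before the blastocyst are given over all loci only, because the rule had capped the members there. BL against CM used loci kept by filterByExpr of edgeR 4.0.16. Alternatives were other pseudocounts, scalings and filters, edgeR and DESeq2 1.42.0 on recovered reads, a replicate block and leaving out each sample, where a lone sample is assumed to vary like the others. On simulated data the fits recovered 72.5% (BL against CM, 8503 loci), 97% (CM against MII to EM, 13032) and 100% (across EGA, 12907) of 200 loci changed 8-fold, with 28, 31 and 15 false calls. For BL against CM, 28 false calls are more than an adjusted p under 0.05 aims at. The simulated counts had a fixed spread and no other stage differences, and only well-read loci were changed. These shares therefore do not carry over to the embryos. Floors of 3 reads and 95% intervals cover counting error only.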

Additional observations from a re-analysis of the deposited data

How the results depend on the processing

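The number of genes meeting the rule moved with its thresholds. It was 5 with blastocyst values at 100 or more, 32 at 25 or more, 3 with other values at 5 or less, 22 at 20 or less, and 18 with a mean blastocyst value of 50 or more. It was 14 when scaled to total reads (8 shared, HPCA and PLLP lost) and 9 with TMM factors (DPEP1 lost). Leaving out 1 sample, which can only relax the rule, gave 10 to 34 genes: 34 without BL embryo 1, 16 without BL embryo 2.

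Between BL and CM, 427 loci were called, against 154 with edgeR and 132 (without CM embryo 2) to 670 (without 8C embryo 2) when 1 sample was left out, with 660 without 8C embryo 1 and 137 without BL embryo 2. For CM against MII to EM, 1896 became 1 when CM was set against EM alone, and 185 (without CM embryo 2) to 2629 when 1 sample was left out, with 249 without CM embryo 1. The count across EGA, 7703, stayed within 1.5 times under every alternative run. On recovered reads edgeR called 1941 loci for CM and 7060 across EGA, and DESeq2 called 364, 2060 and 6519 in the 3 comparisons. A shift of all loci under scaling to total reads reached 0.34 (median log2, across EGA) and 0.26 (BL against CM).

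Between BL and CM some directions turned for genes that did not pass. AQP11, at 0.09, was at -0.097 with TMM factors and -0.068 with edgeR. With 1 sample left out, KRT10 ran from -0.97 to 2.64, SSLP1 from -1.79 to 0.77, AQP11 from -0.27 to 0.45 and VGLL4 from -2.19 to 0.76.

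Replicates share a number only: over 28 pairs of stages, the correlation of same-numbered samples' deviations ran from -0.26 to 0.13, with 1 over 0.1. With the replicate block 392, 1832 and 7700 loci were called for BL against CM, CM against MII to EM, and across EGA. Planned counts of promoter motifs and GC content were not run, since no sequence was used here.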

Other observations

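The same thresholds were met by 2 loci without a gene name. XLOC_075517 was at 124 and 211 in the blastocysts, and its highest earlier value was 1.09, in 16C embryo 1. XLOC_064127 was at 86.2 and 101 in the blastocysts, with reads in 3 of the 14 earlier samples and a highest value of 6.47 in 16C embryo 2. Sequences and positions of these loci were not used here.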
